A study of Homo sapiens with 9 samples.

Results

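HCT-Oxa-c, a subline of the human colorectal carcinoma line HCT116 that had become resistant to oxaliplatin, was compared with its parental line over all mature miRNAs with enough reads. The libraries were chosen by the line named in their labels, which gave 6 of the 9 samples of the series, 3 from HCT116 and 3 from HCT-Oxa-c. The other 3 samples came from HCT-FU-c, a subline resistant to 5-fluorouracil, and served to estimate the spread and as a second line to compare with. HCT116 lacks DNA mismatch repair, and HCT-Oxa-c was derived from it under permanent exposure to oxaliplatin at slowly raised doses. Small RNA from total RNA of both lines was sequenced on an Illumina MiSeq. The labels call the 3 samples of a line cell culture replicates. The p-values thus measure the spread between cultures, pooled over the 3 lines, and only 1 oxaliplatin-resistant subline was sequenced.

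Oxaliplatin is a platinum drug that crosslinks DNA and is given for colorectal cancer. A miRNA is cut from a hairpin transcript as a short duplex, of which 1 strand usually accumulates, and it directs silencing of mRNAs that match its seed, the bases near its 5′ end. miRNAs with a common seed share predicted targets, and hairpins that lie close together are often transcribed as 1 cluster.

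The mature sequences of the miRNAs on which the results turn come from RefSeq (GRCh38.p14) and are written 5′ to 3′, with the seed (bases 2 to 8) in capitals. The first 4 are guide strands of paralogous clusters whose levels moved in opposite directions, and each pair shares its seed.
miR-23a-3p: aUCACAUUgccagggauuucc
miR-23b-3p: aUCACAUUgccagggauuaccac
miR-27a-3p: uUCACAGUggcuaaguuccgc
miR-27b-3p: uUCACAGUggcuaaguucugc
Counted from the 5′ end of the miR-23a-3p and miR-27a-3p strands, the partners differ by U19A in the miR-23 pair, which are otherwise distinct only in length, and by C19U in the miR-27 pair. Next stand both strands of the hairpin with the largest fold decrease, beside 2 relatives that share the seed of its 5p strand.
miR-30a-5p: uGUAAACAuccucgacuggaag
miR-30c-5p: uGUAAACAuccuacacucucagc
miR-30e-5p: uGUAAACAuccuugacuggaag
miR-30a-3p: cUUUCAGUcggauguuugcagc
From miR-30a-5p, miR-30e-5p differs by C13U alone. The remaining miRNAs called without the replicate block have seeds of their own.
miR-205-5p: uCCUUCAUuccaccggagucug
miR-629-5p: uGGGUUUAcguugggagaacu
miR-487b-3p: aAUCGUACagggucauccacuu
miR-889-3p: uUAAUAUCggacaaccauugu
The last pairs are miR-203a-3p and miR-203b-3p, which come from overlapping hairpins on opposite strands and differ within the seed, and miR-148a-3p and miR-152-3p, which lie on different chromosomes and share a seed.
miR-203a-3p: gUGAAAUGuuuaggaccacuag
miR-203b-3p: uUGAACUGuuaagaaccacugga
miR-148a-3p: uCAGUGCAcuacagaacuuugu
miR-152-3p: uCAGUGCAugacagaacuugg

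Replicates 1, 2 and 3 held 1423526, 1414341 and 856383 counts in HCT116 and 1950307, 2207538 and 1088268 in HCT-Oxa-c. Levels are given as CPM after TMM scaling. A count of 3 or fewer, which is 1.34 to 4.01 CPM in these 6 libraries, was taken as not distinguishable from 0, a limit that covers counting error only. Replicate 3 stood apart in both lines: its level was more than 2-fold away from the mean of the other 2 replicates for 156 of 367 miRNAs in HCT116 and 125 in HCT-Oxa-c, while replicates 1 and 2 differed by more than 2-fold for 46 and 22. The replicate 3 libraries of the lines departed together (correlation of deviations from the line means 0.69). Replicates 1 and 2 were not told apart by their numbers, at 0.47 and 0.57 for the same number and 0.37 and 0.51 across. Counts are therefore given without and with the replicate number as a block.

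The HCT-Oxa-c profile differed from that of HCT116 by a near loss of both miR-30a strands and a switch between the paralogous miR-23/27/24 clusters. Low-level chromosome 14 miRNAs, miR-181a-5p and miR-181b-5p rose, miR-205-5p appeared, and other miRNAs shifted by small amounts. Of the 10 most abundant miRNAs only miR-100-5p and let-7f-5p were called, and only with the block. Each kept that call without just 1 of the 3 replicate numbers. Of 367 tested miRNAs, 9 (2.45%) had a Benjamini-Hochberg adjusted p below 0.05 in the quasi-likelihood F test of edgeR, 5 of them higher in HCT-Oxa-c. With the replicate block 54 (14.7%) passed, of which 35 (9.54%) were higher and 19 (5.18%) lower, and these included all 9. In each of the 54 miRNAs the 3 ratios between libraries of the same number had 1 sign, which a call with the block itself favours. For 36 of them the libraries of the lines did not overlap. Over all tested miRNAs, 59 (16.1%) had libraries that did not overlap, and the median log2 fold change was -0.01. The changes were uneven in size: with the block 15 miRNAs were over 4-fold higher and 3 over 4-fold lower, while 24 differed by less than 2-fold.

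**Figure D1:**
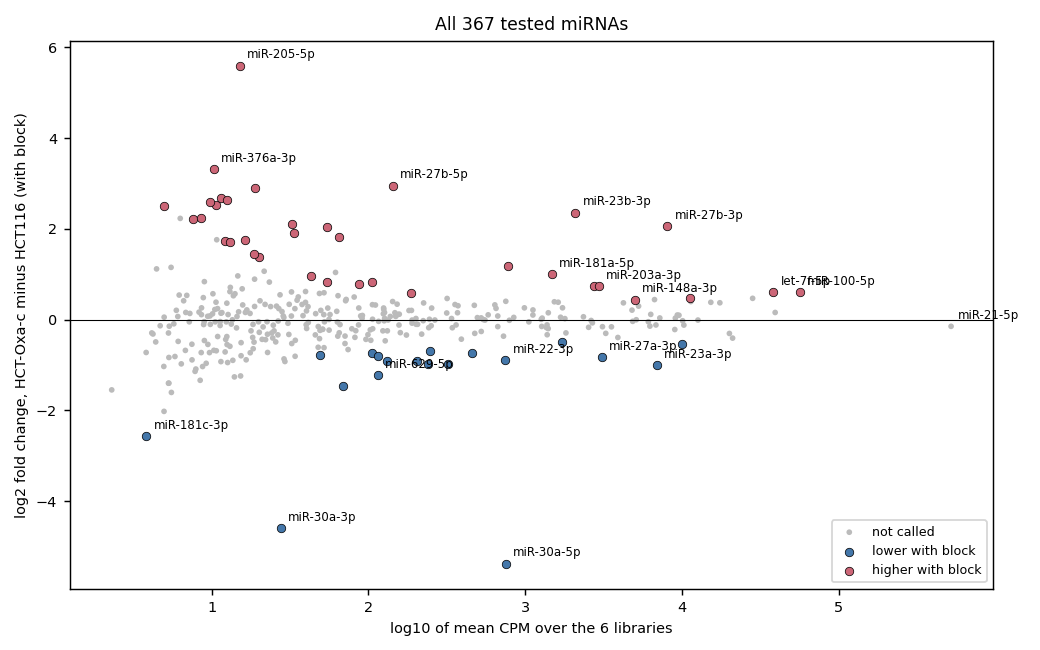
Log2 fold change with the replicate block against the log10 mean CPM for all 367 tested miRNAs, with the 35 higher and 19 lower miRNAs coloured. The large changes lie mostly at low and middle levels, with miR-27b-3p (log2 fold change 2.07 at a mean of 8080 CPM) as an exception. The most abundant called miRNAs, miR-100-5p and let-7f-5p, moved by less than 2-fold.

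The calls with the block rested in part on single replicate numbers. Without the libraries of replicate number 1, 2 or 3 the block gave 38, 30 and 50 calls, and 35, 30 and 43 of the 54 kept theirs. 24 miRNAs kept their call without each number in turn, 10 lost it or went untested once, 16 in 2 cases and 4 in all 3. Under 5 other settings of the block (scaling, DESeq2 or only the 6 libraries) 49 to 52 of the 54 kept their call. Replicates 1 and 2 alone, analysed with no block, which was picked only once the values were known, gave 43 calls, of which 38 were among the 54 and included all 9. DESeq2 without a block called 23 miRNAs, the same 9 among them.

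Both strands of miR-30a were nearly lost. The hairpin lies in an intron of the noncoding gene AL136164.2 (chr6:71403551-71403621 of GRCh38, minus strand). miR-30a-5p, the abundant strand, measured 1554, 1565 and 1282 CPM in HCT116 and 40.4, 21.5 and 52.3 CPM in HCT-Oxa-c. miR-30a-3p measured 33.9, 29.99 and 96.2 CPM in HCT116 and 1.57, 1.79 and 2.05 CPM in HCT-Oxa-c, which is 3, 4 and 2 counts in the resistant subline. For both strands each HCT-Oxa-c library lay below each HCT116 library. In HCT-Oxa-c miR-30a-3p was at or near the counting limit, with replicate 2 just above it. The 5p strand fell from 1467 ± 160.4 to 38.04 ± 15.6 CPM (SD, n = 3 each), with log2 fold change -5.28, standard error 0.60, edgeR adjusted p = 0.00193. With the block its edgeR adjusted p was 8.2e-11, and the 3p strand had log2 fold change -4.83, standard error 0.57, edgeR adjusted p = 0.00193 without it. Both calls held whichever library was left out, though the 3p log2 fold change was -4.13 without HCT116 replicate 3, its highest library.

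Only these 2 strands of 8 tested family members passed with or without the block, and the family median log2 fold change was 0.13 against -0.01 over all tested miRNAs. The 5 listed 5p arms together (miR-30a to miR-30e) amounted to 21731, 23588 and 29611 CPM in HCT116 and 24317, 25134 and 34089 CPM in HCT-Oxa-c. The share of miR-30a-5p in this sum was 7.15, 6.64 and 4.33% in HCT116 and 0.166, 0.0854 and 0.153% in HCT-Oxa-c, so the rest of the sum came from the other arms. Counts of the seed GUAAACA as matched to RefSeq, which leaves out 2 of those arms, passed neither without the block (edgeR adjusted p = 0.908) nor with it (0.242).

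The miR-23b/27b/24-1 cluster on chromosome 9 rose and its paralogue miR-23a/27a/24-2 on chromosome 19 fell. miR-23b-3p measured 595, 701 and 682 CPM in HCT116 and 2662, 2878 and 5019 CPM in HCT-Oxa-c. miR-27b-3p, the most abundant strand cut from the chromosome 9 cluster alone, measured 3059.7, 2860.4 and 3184 CPM in HCT116 and 10206, 10750.3 and 18418 CPM in HCT-Oxa-c. All HCT-Oxa-c libraries were above all HCT116 libraries in both cases, and replicate 3 was the highest of the resistant subline. miR-23b-3p rose from 659 ± 56.9 to 3519.8 ± 1303 CPM (SD, n = 3 each), with log2 fold change 2.42, standard error 0.30, edgeR adjusted p = 0.00193. miR-27b-3p had log2 fold change 2.11, standard error 0.27, edgeR adjusted p = 0.00193, and both calls held whichever library was left out. With the block all 5 tested strands of this cluster were higher and all 4 tested strands of the other were lower, with median log2 fold changes of 2.51 and -0.91. Over all 367 tested miRNAs 9.54% were higher and 5.18% lower. No HCT116 library held more than 4 counts of miR-23b-5p or miR-24-1-5p. These strands passed the filter through the resistant sublines, which in part set their direction.

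miR-23a-3p measured 8574, 10618 and 8482 CPM in HCT116 and 4435, 4535 and 4913 CPM in HCT-Oxa-c, so the lines did not overlap and the resistant libraries differed little among themselves. It fell from 9225 ± 1207 to 4628 ± 252 CPM (SD, n = 3 each), with log2 fold change -0.995, standard error 0.21, edgeR adjusted p = 0.0471, and with the block its edgeR adjusted p was 9.3e-05. Without the block this call depended on single libraries: the edgeR adjusted p was 0.177 without HCT116 replicate 1, 0.238 without HCT116 replicate 2, 0.215 without HCT-Oxa-c replicate 1, 0.201 without HCT-Oxa-c replicate 2, 0.185 without HCT-Oxa-c replicate 3, 0.108 without HCT-FU-c replicate 1 and 0.0606 without HCT-FU-c replicate 3. miR-27a-3p measured 3709, 4921 and 3316 CPM in HCT116 and 2279.8, 2038 and 2324 CPM in HCT-Oxa-c, again without overlap. Its edgeR adjusted p was 0.0965 without the block and 0.000517 with it, and DESeq2 without a block called it (DESeq2 adjusted p = 0.00447).

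Less abundant strands of these clusters were called as well. miR-27b-5p measured 22.4, 14.99 and 65.4 CPM in HCT116 and 150.4, 163 and 446 CPM in HCT-Oxa-c and was called with the block (log2 fold change 2.95, standard error 0.23, edgeR adjusted p = 1.0e-09 against 0.0857 without the block), and by DESeq2 without one (DESeq2 adjusted p = 0.00119). For miR-24-2-5p the levels were 126, 123 and 53.4 CPM in HCT116 and 48.2, 49.2 and 14.4 CPM in HCT-Oxa-c, and it was also called with the block (log2 fold change -1.46, standard error 0.23, edgeR adjusted p = 7.3e-05 against 0.319 without the block). miR-27a-5p (edgeR adjusted p = 0.01201 with the block, 0.0753 with number 1 left out), miR-23b-5p (0.004105, 0.0889 with number 1 left out and 0.0916 with number 2 left out) and miR-24-1-5p (0.0349, not tested with number 1 left out and not tested with number 2 left out) changed the same way as the miR-23 and miR-27 guide strand of their cluster, the last from raw counts of 2, 4 and 0 in HCT116 and 16, 29 and 4 in HCT-Oxa-c. miR-24-3p, which is cut from hairpins of both clusters, measured 14929.9, 17447 and 4509 CPM in HCT116 and 9414, 9491 and 4271 CPM in HCT-Oxa-c. Its lines overlapped because replicate 3 was low in both, and with the block it fell, unlike miR-24-1-5p, with a log2 value of -0.53 (edgeR adjusted p = 0.0436, 0.3296 with number 1 left out and 0.169 with number 2 left out). That call was also lost under 4 of the 5 other block settings, with an adjusted p of up to 0.0699.

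**Figure D2:**
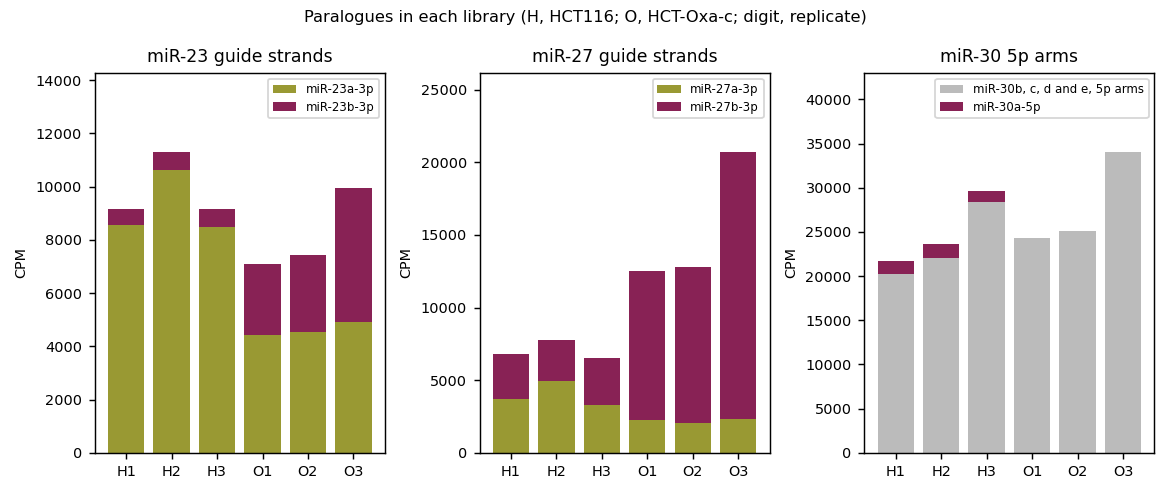
Stacked CPM of the paralogous guide strands of miR-23 and miR-27, and of miR-30a-5p with the other miR-30 5p arms, in each library (H1 to H3, HCT116; O1 to O3, HCT-Oxa-c). The b paralogue takes a larger part of each HCT-Oxa-c bar, the miR-27 total is higher there, and the miR-30a-5p part is too thin to see there.

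The switch changed the composition of both seed families but the total of only the miR-27 seed passed the test. miR-23b-3p made up 6.48, 6.19 and 7.45% of the 2 miR-23 guide strands in HCT116 and 37.5, 38.8 and 50.5% in HCT-Oxa-c. miR-27b-3p made up 45.2, 36.8 and 48.98% of the miR-27 guide strands in HCT116 and 81.7, 84.1 and 88.8% in HCT-Oxa-c. Neither share overlapped between the lines. Summed over all miRNAs with the seed UCACAUU, the miR-23 family had 9437, 11738 and 9381 CPM in HCT116 and 7343, 8209 and 9779 CPM in HCT-Oxa-c, overlapping values that did not pass (edgeR adjusted p = 0.898, with the block 0.242). The miR-27 family, seed UCACAGU, had 6967, 8075 and 6655 CPM in HCT116 and 12917, 14162 and 20419 CPM in HCT-Oxa-c. Its libraries did not overlap and its total rose (log2 fold change 1.13, edgeR adjusted p = 0.0399, with the block 1.8e-06). Without the block this call was lost in 8 of the 9 fits that left out a library, all but that without HCT-FU-c replicate 3, at an edgeR adjusted p of 0.0593 to 0.2100. The a and b guide strands differ at 1 base near the 3′ end, how reads that match both were assigned is not given in the sources used here, and what part such reads had in the split was not tested.

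miR-205-5p, an epithelial miRNA of squamous tissues, was almost confined to HCT-Oxa-c among these 6 libraries. Its hairpin overlaps an exon of MIR205HG (chr1:209432133-209432242 of GRCh38, plus strand). The raw counts were 2, 0 and 0 in HCT116 and 69, 48 and 31 in HCT-Oxa-c, or 36.2, 21.5 and 31.8 CPM in the resistant subline. With 4, 7 and 0 counts in HCT-FU-c, miR-205-5p passed the filter only through HCT-Oxa-c, which in part set its direction. The ratio of HCT-Oxa-c to HCT116 was 52.4, with a 95% counting interval of 14.2 to 436, and log2 fold change 5.58, standard error 0.97, edgeR adjusted p = 0.0173. The call was lost in 2 cases, with an edgeR adjusted p of 0.0723 without HCT116 replicate 2 and 0.0686 without HCT-Oxa-c replicate 1, and with the block it was 2.0e-05. Leaving out 1 library moved the log2 fold change to between 5.01 (HCT116 replicate 2) and 8.41 (HCT116 replicate 1, which holds both parental counts).

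miR-629-5p, from an intron of TLE3 on chromosome 15, fell. It measured 204, 136 and 144 CPM in HCT116 and 67.1, 66.2 and 72.8 CPM in HCT-Oxa-c, without overlap and with nearly equal resistant libraries. The decrease was from 161 ± 37.4 to 68.7 ± 3.62 CPM (SD, n = 3 each), with log2 fold change -1.23, standard error 0.25, edgeR adjusted p = 0.0322. Without the block the edgeR adjusted p was 0.179 without HCT116 replicate 1, 0.0863 without HCT116 replicate 2, 0.169 without HCT-Oxa-c replicate 1, 0.168 without HCT-Oxa-c replicate 2, 0.1254 without HCT-Oxa-c replicate 3, 0.1002 without HCT-FU-c replicate 1 and 0.0606 without HCT-FU-c replicate 3, while with the block it was 0.000135 and held without each replicate number.

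**Figure D3:**
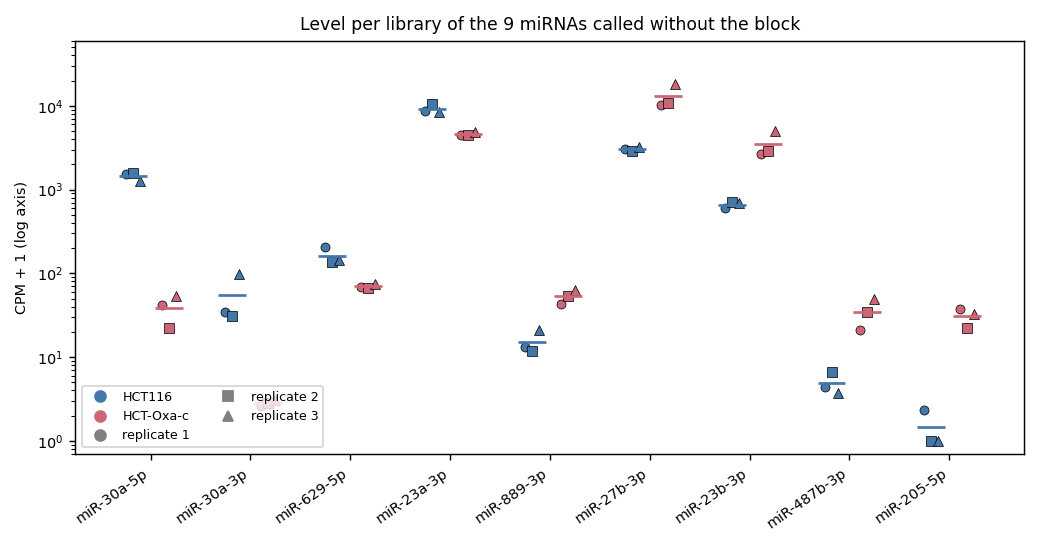
CPM + 1 on a log axis in each library for the 9 miRNAs called without the block, with the line mean as a bar and a symbol for each replicate number. In all 9 the 3 HCT-Oxa-c libraries lie on 1 side of the 3 HCT116 libraries, which the call itself favours. Over all 367 tested miRNAs, 59 (16.1%) had libraries that did not overlap.

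The cluster from miR-379 to miR-656 in the imprinted region on chromosome 14 was higher as a group, from low levels. Of 53 listed members 17 were tested, and 2 passed without the block and 14 with it, all higher. The median log2 fold change was 1.98 (2.11 with the block). With the block 9.54% of all 367 tested miRNAs were higher and 5.18% lower. No HCT116 library held more than 8 counts of miR-323a-3p, miR-376a-3p, miR-376c-3p, miR-382-3p, miR-382-5p, miR-487b-3p or miR-494-3p, all called with the block. Such members passed the filter through HCT-Oxa-c, where they were high. The filter thus in part set the direction, the number called higher and the median. The level summed over all 53 listed members, which does not depend on the filter, was 109, 118 and 234 CPM in HCT116. It was 471, 554 and 835 CPM in HCT-Oxa-c, each resistant library above each parental one. miR-487b-3p measured 3.39, 5.71 and 2.67 CPM in HCT116 and 19.9, 33.1 and 48.2 CPM in HCT-Oxa-c, with log2 fold change 3.02, standard error 0.55, edgeR adjusted p = 0.01904. miR-889-3p measured 12.2, 10.7 and 20.03 CPM in HCT116 and 42.5, 51.9 and 62.6 CPM in HCT-Oxa-c, with log2 fold change 1.89, standard error 0.33, edgeR adjusted p = 0.0173. Neither overlapped between the lines. Both calls depended on single libraries without the block: the edgeR adjusted p of miR-487b-3p was 0.136 without HCT116 replicate 1, 0.0584 without HCT116 replicate 2, 0.0761 without HCT-Oxa-c replicate 2 and 0.0682 without HCT-Oxa-c replicate 3, and that of miR-889-3p was 0.128 without HCT116 replicate 1, 0.0723 without HCT116 replicate 2, 0.0761 without HCT-Oxa-c replicate 2 and 0.0682 without HCT-Oxa-c replicate 3.

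With the block the largest change in the cluster was that of miR-376a-3p, at raw counts of 3, 0 and 3 in HCT116 and 27, 27 and 29 in HCT-Oxa-c (log2 fold change 3.32, standard error 0.67, edgeR adjusted p = 0.00115 against 0.109 without the block). miR-379-5p, the first hairpin of the cluster, measured 12.2, 9.996 and 46.7 CPM in HCT116 and 51.9, 61.2 and 145 CPM in HCT-Oxa-c and had log2 fold change 2.04, standard error 0.29, edgeR adjusted p = 2.0e-05 against 0.259 without the block. The other members called with the block were miR-323a-3p, miR-329-3p, miR-369-3p, miR-376c-3p, miR-382-3p, miR-382-5p, miR-409-3p, miR-411-5p, miR-494-3p and miR-543. Their log2 fold changes lay between 1.72 for miR-543 and 2.69 for miR-323a-3p. Leaving out 1 replicate number widened this range to between 1.30 (miR-329-3p, number 2) and 3.38 (miR-376c-3p, number 1). miR-369-3p, the most abundant on average, measured 14.9, 9.28 and 70.8 CPM in HCT116 and 44.5, 58.6 and 189 CPM in HCT-Oxa-c and overlapped because replicate 3 of HCT116 was above replicates 1 and 2 of HCT-Oxa-c. Of these, 5 lost their call without a replicate number, and miR-411-5p was not tested without number 2. The edgeR adjusted p-values there were 0.241 with number 1 left out and 0.2098 with number 2 left out for miR-543, 0.193 with number 1 left out and 0.288 with number 2 left out for miR-382-5p, 0.0673 with number 1 left out and 0.418 with number 2 left out for miR-329-3p, 0.233 with number 2 left out and 0.107 with number 3 left out for miR-376c-3p and 0.0863 with number 2 left out for miR-494-3p. The neighbouring group of miR-127, miR-136 and miR-345 had 1 tested member of 8 listed, miR-345-5p, at 246, 221 and 111 CPM in HCT116 and 205, 205 and 151 CPM in HCT-Oxa-c, which did not pass.

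The miR-181 family split by member. miR-181a-5p, which is cut from hairpins on 2 chromosomes, measured 729.6, 814 and 1396 CPM in HCT116 and 1669, 1413 and 2845 CPM in HCT-Oxa-c, without overlap. miR-181b-5p, which also comes from more than 1 hairpin, measured 309, 315 and 819 CPM in HCT116 and 750.5, 714 and 1728 CPM in HCT-Oxa-c. Its replicate 3 in HCT116 was above replicates 1 and 2 of HCT-Oxa-c, so the lines overlapped. Both were called with the block and not without it, miR-181a-5p with log2 fold change 1.001, standard error 0.15, edgeR adjusted p = 3.7e-05 against 0.426 without the block and miR-181b-5p with log2 fold change 1.18, standard error 0.16, edgeR adjusted p = 1.6e-05 against 0.584 without the block. miR-181a-3p rose with them (log2 fold change 0.82, standard error 0.27, edgeR adjusted p = 0.0418 against 0.809 without the block, 0.265 with number 2 left out and 0.0529 with the block in DESeq2), whereas miR-181c-3p was lower at raw counts of 10, 13 and 3 in HCT116 and 2, 4 and 0 in HCT-Oxa-c (log2 fold change -2.57, standard error 0.79, edgeR adjusted p = 0.0291 against 0.166 without the block, 0.268 with number 1 left out, not tested with number 2 left out and 0.0514 with number 3 left out). Of 8 tested members 3 were higher and 1 lower with the block and 0 passed without it, where 2 had an unadjusted p below 0.05 and DESeq2 called 1. The seed ACAUUCA summed to 1110.0, 1209.8 and 2341 CPM in HCT116 and 2543, 2394 and 4558 CPM in HCT-Oxa-c, with a log2 fold change of 1.05 and an edgeR adjusted p of 1.8e-06 with the block (0.498 without it).

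Outside these 4 groups 26 of 332 tested miRNAs (7.83%) passed with the block, 13 higher and 13 lower, beside 28 of 35 (80.0%) inside them. The groups were chosen with earlier results of these data known, so these shares do not test whether calls gather in them. Except for miR-30a, miR-205-5p, miR-449c-5p, miR-190a-5p and miR-629-5p the 26 outside differed by less than 2-fold.

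**Figure D4:**
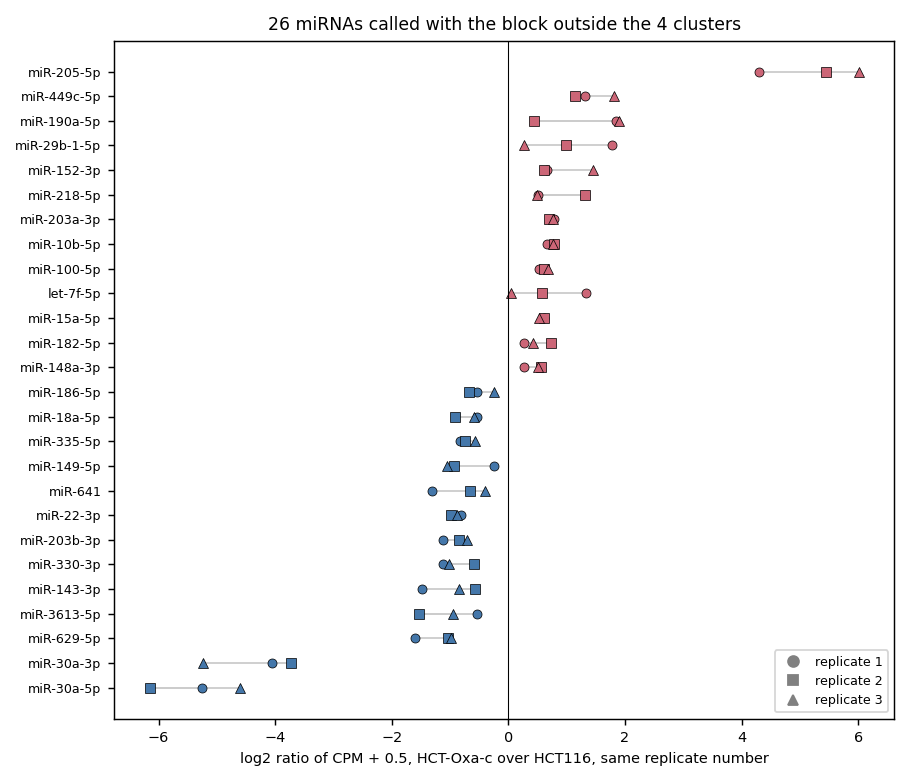
Log2 ratio of CPM + 0.5 between HCT-Oxa-c and HCT116 libraries of the same replicate number for the 26 miRNAs called with the block outside the clusters. All 3 ratios of a miRNA lie on 1 side of 0, which a call with the block itself favours, and let-7f-5p has a ratio near 0 in replicate 3.

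Among the abundant miRNAs the largest gain in reads was that of miR-100-5p, the second most abundant miRNA, from an intron of MIR100HG on chromosome 11. It measured 41151, 38779 and 53583 CPM in HCT116 and 59446, 59575 and 86242 CPM in HCT-Oxa-c, without overlap. It was called with the block and not without it (log2 fold change 0.61, standard error 0.17, edgeR adjusted p = 0.0187 against 0.521 without the block), and its edgeR adjusted p was 0.0904 with number 2 left out and 0.0675 with number 3 left out. let-7f-5p, a let-7 guide strand from 2 hairpins, measured 12782, 19138 and 68139.6 CPM in HCT116 and 32181, 28513 and 69905 CPM in HCT-Oxa-c. Its replicate 3 libraries were about equal and far above the others, so the lines overlapped. With the block it had log2 fold change 0.61, standard error 0.20, edgeR adjusted p = 0.0447 against 0.9905 without the block, which became 0.443 with number 1 left out and 0.0683 with number 2 left out. With the block let-7f-5p was the only one of 18 tested members of the let-7 family with miR-98 to pass. A further member, let-7a-5p, was called in 2 of 26 alternative settings. The family median was 0.20 with the block against -0.01 over all tested miRNAs.

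miR-21-5p, the oncogenic miRNA that dominates these libraries, held 55.5, 57.1 and 46.7% of the counts in HCT116 and 51.7, 52.1 and 40.0% in HCT-Oxa-c. Its level was 536505, 576778 and 534037 CPM in HCT116 and 528377, 514588 and 446359 CPM in HCT-Oxa-c, and it did not pass (edgeR adjusted p = 0.953, with the block 0.699). Of the other most abundant miRNAs, miR-7-5p, let-7a-5p, miR-222-3p, miR-10a-5p, miR-30d-5p, miR-92a-3p and let-7g-5p did not pass either. Among 26 alternative settings, let-7a-5p was called in 2, and miR-222-3p, miR-30d-5p and miR-92a-3p in 1 each. miR-222-3p measured 20337, 18341 and 33593 CPM in HCT116 and 15326, 14206 and 24738 CPM in HCT-Oxa-c. Its edgeR adjusted p was 0.0738 under the block.

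The rises with the block included miR-203a-3p, an epithelial differentiation miRNA, at 2150.2, 1881 and 2551 CPM in HCT116 and 3679, 3066 and 4336 CPM in HCT-Oxa-c. The lines did not overlap, and it had log2 fold change 0.75, standard error 0.14, edgeR adjusted p = 0.000551 against 0.265 without the block and passed without each replicate number. miR-203b-3p, from the hairpin that overlaps that of miR-203a on the opposite strand (chr14:104117418-104117503 within chr14:104117405-104117514 of GRCh38), went the other way. It measured 138, 111 and 529 CPM in HCT116 and 63.4, 61.7 and 323 CPM in HCT-Oxa-c, overlapping because replicate 3 was high in both lines, and had log2 fold change -0.91, standard error 0.26, edgeR adjusted p = 0.0194 against 0.9801 without the block (0.0508 with number 1 left out). Whether the counting used the strand is not given in the sources used here.

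miR-148a-3p measured 4669, 4399 and 3659 CPM in HCT116 and 5609.8, 6522 and 5177 CPM in HCT-Oxa-c and its seed relative miR-152-3p measured 38.01, 59.3 and 20.03 CPM in HCT116 and 60.3, 91.2 and 55.4 CPM in HCT-Oxa-c. miR-148a-3p did not overlap between the lines. Both passed with the block and not without it, at an edgeR adjusted p of 0.0447 and 0.0284, which became 0.377 with number 2 left out and 0.156 with number 3 left out for miR-148a-3p and 0.104 with number 2 left out and 0.121 with number 3 left out for miR-152-3p. With RLE size factors or total counts the miR-148a-3p call was lost, at an edgeR adjusted p of up to 0.0621. miR-10b-5p, from the HOXD cluster, measured 778, 801 and 4559 CPM in HCT116 and 1228, 1378 and 7788 CPM in HCT-Oxa-c and had log2 fold change 0.75, standard error 0.21, edgeR adjusted p = 0.0175 against 0.978 without the block. miR-182-5p, of the sensory cluster of miR-183, miR-96 and miR-182, measured 5363, 4473 and 18961 CPM in HCT116 and 6438, 7430.0 and 25384 CPM in HCT-Oxa-c. In both, replicate 3 was several-fold above the others in each line. miR-182-5p had log2 fold change 0.48, standard error 0.16, edgeR adjusted p = 0.04297 against 0.9905 without the block (0.439 with number 2 left out and 0.103 with number 3 left out), and none of the other 4 tested members of its cluster passed.

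miR-218-5p, from introns of the SLIT genes, measured 62.4, 58.6 and 69.4 CPM in HCT116 and 88.6, 147 and 97.5 CPM in HCT-Oxa-c, without overlap (log2 fold change 0.80, standard error 0.24, edgeR adjusted p = 0.0291 against 0.277 without the block, 0.458 with number 2 left out). miR-449c-5p, from an intron of CDC20B, was found at raw counts of 12, 14 and 8 in HCT116 and 40, 51 and 38 in HCT-Oxa-c, again without overlap, and its edgeR adjusted p of 0.0217 with the block became 0.0889 with number 1 left out, 0.117 with number 2 left out and 0.0781 with number 3 left out. miR-190a-5p, from an intron of TLN2, was found at raw counts of 7, 15 and 11 in HCT116 and 35, 33 and 55 in HCT-Oxa-c and had an edgeR adjusted p of 0.0364 (0.144 with number 1 left out and 0.209 with number 3 left out). These rises rest on low counts or on 1 replicate number. miR-29b-1-5p measured 11.5, 19.99 and 65.4 CPM in HCT116 and 40.9, 40.2 and 78.99 CPM in HCT-Oxa-c, overlapping through replicate 3 (edgeR adjusted p = 0.0394 with the block, 0.272 with number 1 left out and 0.127 with number 2 left out). The 29a and 29b guide strands, miR-29a-3p and miR-29b-3p, did not pass.

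Hairpins of the DLEU2 locus on chromosome 13 moved apart. miR-3613-5p measured 445, 678 and 174 CPM in HCT116 and 306, 232 and 89.2 CPM in HCT-Oxa-c and had log2 fold change -0.98, standard error 0.21, edgeR adjusted p = 0.00193 against 0.741 without the block, with a call that held without each replicate number. miR-15a-5p, a miRNA that targets BCL2, measured 161, 134 and 154 CPM in HCT116 and 245, 205 and 222 CPM in HCT-Oxa-c, without overlap. With the block it was higher (log2 fold change 0.58, standard error 0.18, edgeR adjusted p = 0.0291 against 0.265 without the block), but its edgeR adjusted p was 0.0753 with number 1 left out, 0.208 with number 2 left out and 0.0579 with number 3 left out, and 0.0644 with total counts. miR-16-5p, cut from the hairpin beside it and from another on chromosome 3, measured 7746, 7400.2 and 4652 CPM in HCT116 and 7009.7, 6151 and 4576 CPM in HCT-Oxa-c and did not pass.

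Among the decreases with the block, miR-22-3p, whose hairpin overlaps an exon of MIR22HG, measured 1412, 1146 and 349 CPM in HCT116 and 806, 580.2 and 189 CPM in HCT-Oxa-c. It was low in replicate 3 of both lines, so the lines overlapped, and it had log2 fold change -0.89, standard error 0.18, edgeR adjusted p = 0.00115 against 0.863 without the block with a call that held without each number. miR-330-3p, from the EML2 gene on chromosome 19, measured 194, 146 and 172 CPM in HCT116 and 89.1, 96.6 and 85.1 CPM in HCT-Oxa-c, without overlap (log2 fold change -0.91, standard error 0.20, edgeR adjusted p = 0.002098 against 0.0718 without the block, 0.0753 with number 1 left out). miR-149-5p, from an intron of GPC1, measured 117, 164 and 115 CPM in HCT116 and 98.00, 85.4 and 55.4 CPM in HCT-Oxa-c, without overlap (log2 fold change -0.74, standard error 0.21, edgeR adjusted p = 0.0222 against 0.487 without the block, 0.102 with number 2 left out and 0.124 with number 3 left out). miR-18a-5p was the only one of 10 tested members of the cluster from miR-17 to miR-92a-1 to pass. It measured 213, 233 and 455 CPM in HCT116 and 146, 124 and 303 CPM in HCT-Oxa-c (log2 fold change -0.68, standard error 0.17, edgeR adjusted p = 0.00685 against 0.869 without the block, 0.0582 with number 2 left out). miR-641, from an intron of AKT2, was the weakest call, at an edgeR adjusted p of 0.0476 (0.543 with number 1 left out, 0.0654 with number 2 left out and 0.0582 with number 3 left out), and it was lost under 4 of the 5 other block settings, at up to 0.0785 in DESeq2.

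miR-143-3p, a marker of fibroblasts and smooth muscle, measured 177, 196 and 561 CPM in HCT116 and 62.9, 132 and 312 CPM in HCT-Oxa-c. It was lower in each resistant library than in the HCT116 library of the same number, and had log2 fold change -0.97, standard error 0.20, edgeR adjusted p = 0.00172 against 0.875 without the block (0.0693 with number 1 left out). Its cluster partner miR-145-5p measured 138, 147 and 114 CPM in HCT116 and 149, 168 and 86.2 CPM in HCT-Oxa-c and did not pass (edgeR adjusted p = 0.987 with the block). The 5 markers of these cells summed to 335, 371 and 686 CPM in HCT116 and 232, 319 and 414 CPM in HCT-Oxa-c, miR-143-3p was the most abundant on average, and miR-199a-5p and miR-214-3p had 3 counts or fewer in all 6 libraries. Their part in the result was not tested. The 6 blood markers summed to 4.07, 9.28 and 127 CPM in HCT116 and 2.096, 3.58 and 273 CPM in HCT-Oxa-c. In replicate 3 the sum was mostly miR-451a, at 86 counts in HCT116 and 246 in HCT-Oxa-c. The other replicates held at most 2 counts of miR-451a. The hepatocyte marker miR-122-5p had 45 counts in replicate 3 of both lines. Of the 2 neuronal markers miR-124-3p had 0 counts throughout, and miR-9-5p measured 3256, 3168 and 3420.2 CPM in HCT116 and 3078, 2752 and 3024 CPM in HCT-Oxa-c. The endothelial marker miR-126-3p measured 980.1, 917 and 559.6 CPM in HCT116 and 778, 702 and 432 CPM in HCT-Oxa-c, lower in each resistant library than in the HCT116 library of the same number, and did not pass (edgeR adjusted p = 0.108 with the block). Its other strand miR-126-5p did not overlap, at 110.0, 129 and 120.2 CPM in HCT116 and 94.3, 87.6 and 80.01 CPM in HCT-Oxa-c, and did not pass either (0.178).

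The summed epithelial markers overlapped between the lines. The 8 markers, mainly the miR-200 family that holds the epithelial state, summed to 26030.4, 24341 and 19517 CPM in HCT116 and 25428, 23949.8 and 21035 CPM in HCT-Oxa-c, and miR-200c-3p was the most abundant at 11361, 10156 and 9124 CPM in HCT116 and 10567, 10138 and 9378 CPM in HCT-Oxa-c. Singly, 2 of the markers did not overlap: miR-192-5p measured 42.8, 39.3 and 42.7 CPM in HCT116 and 70.2, 59.9 and 57.4 CPM in HCT-Oxa-c, and miR-429 measured 1919, 2259.9 and 1854 CPM in HCT116 and 1672, 1465 and 1759 CPM in HCT-Oxa-c. Neither passed with or without the block. Of the 8 tested miR-200 family members 0 passed in edgeR's test with or without the block, 0 had an unadjusted p below 0.05 and DESeq2 called 0. In all, 17 lists outside the 4 groups, with 53 tested members in all, had no call with the block. They covered the miR-200, miR-34, miR-192 with miR-194, miR-221 with miR-222, miR-31 with miR-135, miR-106b with miR-25, miR-130, Drosha-independent, miR-21, miR-224, miR-210 and miR-127 with miR-136 lists and the blood, endothelial, neuronal, hepatocyte and muscle markers. With the block 10 of these 53 members had an unadjusted p below 0.05 (2 without it), and DESeq2 without a block called 0. Of the named members, miR-222-3p and miR-451a were called in 1 alternative setting each. With the block the median log2 fold changes of the lists with more than 1 tested member lay between -0.41 and 0.24. miR-34a-5p, a p53 target, measured 127, 127 and 178 CPM in HCT116 and 103, 118 and 139.5 CPM in HCT-Oxa-c, and miR-210-3p, the hypoxia miRNA, measured 28.5, 37.8 and 28.05 CPM in HCT116 and 34.1, 27.7 and 27.7 CPM in HCT-Oxa-c. miR-31-5p measured 4959, 4919 and 4387 CPM in HCT116 and 5894, 5626 and 5999 CPM in HCT-Oxa-c and did not pass (edgeR adjusted p = 0.189 with the block).

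Arms were compared where the 5p and 3p strands share a name stem, which leaves out hairpins such as those of miR-24, where miR-24-1-5p was higher and the shared miR-24-3p lower. Both arms were tested for 83 such stems, and with the block 16 of these had at least 1 called arm and 6 had both. The 2 arms had 1 sign in all 16, in 54 (65.1%) of the 83, and both called arms pointed the same way in all 6. The stems with both arms called were those of miR-181a, miR-23b, miR-27a, miR-27b, miR-30a and miR-382.

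Summed by seed, 5 of 270 families (1.85%) passed without the block and 42 (15.6%) with it. Without the block these were the seeds of miR-205-5p, miR-487b-3p, miR-889-3p, miR-629-5p and the summed miR-27 family. All 5 of these calls depended on single libraries, since 7 of the 9 fits that left out a library called 0 families, with 24 to 34 at an unadjusted p below 0.05. With the block, the 5 smallest p-values belonged to the seeds of miR-27b-5p, miR-27, miR-181, miR-205-5p and miR-379-5p. The family of miR-27b-5p, seed GAGCUUA, has that miRNA alone and changed by 2.97 on the log2 scale (edgeR adjusted p = 3.9e-11).

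Against HCT-FU-c, 16 of 367 miRNAs (4.36%) passed without the block, 13 of them higher in HCT-Oxa-c, and 97 (26.4%) with it, of which 54 were higher and 43 lower. The split with the block depended on the scaling, since total counts in place of TMM gave 37 higher and 66 lower, and RLE size factors 59 higher and 26 lower. This comparison uses the same HCT-Oxa-c libraries as that with HCT116, so values are only set side by side. miR-30a-5p was at 1189, 662 and 267 CPM in HCT-FU-c, above each HCT-Oxa-c library, and the log2 difference was -4.23 with an edgeR adjusted p of 0.00443. miR-27b-3p was at 3421, 3706 and 3859 CPM in HCT-FU-c and miR-205-5p at 3.02, 3.68 and 0 CPM. miR-203b-3p, lower than in HCT116, was higher than in HCT-FU-c with the block (log2 difference 1.61, edgeR adjusted p = 0.0001800).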

How the data were processed

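Small RNA reads were counted by the authors, who deposited raw counts for 1198 mature miRNAs in 9 libraries, and beside them a deposited signal (counts scaled by a factor per library), which was not used. The submitters' processing notes name CASAVA 1.8, Bowtie 1.1.2, DESeq2 and the build GRCh38.p7. The counting tool is not given in the sources used here. Counts were tested with edgeR 4.0.16 in R 4.3.3 (quasi-likelihood F test, TMM, filterByExpr at 10 counts and a total of 15, prior count 0.125, Benjamini-Hochberg adjustment) in 1 fit over the 9 libraries, line as factor. DESeq2 1.42.0, other scalings, filters and left-out libraries were alternatives. The code was tested on simulated data.

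The numbers in the sample labels were checked for pairing by the correlation of deviations from the line means (log2 of CPM + 0.5), which was 0.47, 0.57 and 0.69 for replicates 1, 2 and 3 and so over 0.1 in each pair. HCT116 replicate 2 with HCT-Oxa-c replicate 1 gave 0.51, so the numbers set replicate 3 apart more than they part replicates 1 and 2. Deviations cancel within a line, so a replicate 3 departure common to both lines by itself favours positive values for replicates 1 and 2. The check therefore cannot show that these 2 are paired. Replicates of a line differed by 11.4 to 449 chi-square units per degree of freedom.

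Mature sequences (1059 of 1198 miRNAs, 94.7 to 96.3% of counts) came from RefSeq GRCh38.p14, hairpin positions and hosts from GENCODE 29. Named miRNAs were those called without the block, with the block the 10 largest rises and 10 largest decreases outside the miR-23/27/24, miR-181 and chromosome 14 cluster lists and the 5 largest changes inside, the 10 most abundant, for each list the most abundant, the smallest p and each call with the block, and the 5 largest gains and losses in mean CPM. For named miRNAs called with neither model no fold change is given and only some have their levels printed, a choice made after their fold changes were seen to switch sign between settings. For seed families they were those called without the block and the 5 smallest p-values with it. miR-30c-5p and miR-30e-5p, as seed relatives, and the seed sums of miR-23 and miR-30 were added after their values were seen. Members and lists were chosen with earlier results of these data known.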

Additional observations from a re-analysis of the deposited data

Results flagged for a closer look

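The 9 miRNAs called against HCT116 without the block were set beside HCT-FU-c, a comparison that uses the same HCT-Oxa-c libraries and in which 16 of all 367 miRNAs passed without the block and 97 with it. The log2 difference of HCT-Oxa-c minus HCT-FU-c was 3.53 for miR-205-5p, 1.98 for miR-23b-3p, 1.84 for miR-27b-3p, 2.44 for miR-487b-3p and 2.45 for miR-889-3p. It was -3.90 for miR-30a-3p and -4.23 for miR-30a-5p, and these 7 passed edgeR's test of the difference without the block. The other 2, miR-23a-3p and miR-629-5p, had edgeR adjusted p-values of 0.0613 and 0.0955 without the block, and passed with it (0.0003503 and 0.00468).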

How the results depend on the processing

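The counts below are miRNAs called against HCT116 (9 in the report), miRNAs called against HCT-FU-c (16) and seed families called against HCT116 (5), in this order. DESeq2 gave 23, 43 and 15. With no filter beyond 1 count they were 16, 24 and 11, and with at least 10 counts in every library 4, 9 and 0, where 16 seed families had an unadjusted p below 0.05. Only the 6 libraries compared gave 7, 13 and 1. RLE size factors gave 8, 17 and 3, TMM computed without miR-21-5p 7, 18 and 3, and total counts 12, 17 and 6. With the replicate block, which pairs libraries by number, the counts were 54, 97 and 42. The block with RLE size factors gave 51, 85 and 44, with total counts 49, 103 and 41, with TMM without miR-21-5p 55, 84 and 41, with DESeq2 51, 85 and 39, and with only the 6 libraries compared 65, 77 and 43. Under the block without number 1 they were 38, 62 and 31, without number 2 they were 30, 54 and 25, and without number 3 they were 50, 96 and 42. Replicates 1 and 2 with no block, which was picked only once the values were known, gave 43, 67 and 36. Leaving out 1 library at a time gave 4 to 12, 6 to 23 and 0 to 7. In the 7 cases with 0 seed families, edgeR's test had 24 to 34 families at an unadjusted p below 0.05.

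Without HCT-Oxa-c replicate 3 and with no block, the log2 fold change of let-7f-5p turned to -0.07798, that of miR-10b-5p to -0.59 and that of miR-182-5p to -0.40. There that of miR-203b-3p was -1.98. Without HCT116 replicate 3 that of miR-203b-3p turned to 0.21, while let-7f-5p had 1.42, miR-10b-5p 2.10 and miR-182-5p 1.38. In these 4 miRNAs the replicate 3 level stands above the others in both lines, and an unequal number of replicate 3 libraries remains. For the 37 named miRNAs that passed with neither model, the log2 fold change switched sign against the report's fit in 88 of 950 alternative values, in 15 of these miRNAs. Once this was seen, no fold change was given for them here or in the report, where some appear with their levels, some only as not passing and some not at all.

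Miss of a threshold does not show equal levels. Members with few counts, among them most of the chromosome 14 cluster, carry wide errors, and 36 of its 53 listed members were not tested. The reads carry no molecular identifiers in the sources used here, so intervals and limits cover counting error only.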
